A study of Mus musculus with 12 samples.

Results

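The effect of Ulk1 overexpression on an Alzheimer's disease mouse background was described from 6 of the series' 12 hippocampal RNA-seq libraries. The 3 libraries labelled 5xFAD;Ulk1OV carry both genotypes by their label (1 of them goes against it, below) and were compared with the 3 labelled 5xFAD, which lack the overexpression. The remaining libraries, 3 labelled Ulk1OV and 3 labelled WT, entered the fit and were used where both backgrounds are set side by side. Members were taken from the labels alone, with no measured value. Neither the age of the mice, the promoter and species of the Ulk1 construct, nor whether replicates were separate animals is given in the sources used here, so p-values measure the spread between libraries, which may be technical.

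ULK1 is a serine/threonine kinase. In a complex with ATG13, RB1CC1 (FIP200) and ATG101 it starts autophagy, the process that encloses cytoplasm and damaged organelles in a membrane and delivers them to the lysosome. AMPK activates it and mTORC1 inhibits it. In Alzheimer's disease models autophagic vesicles accumulate in swollen neurites, and mitophagy, the removal of mitochondria by the same machinery, has been studied as a way to protect neurons. 5xFAD mice express mutant human APP and develop amyloid plaques surrounded by activated microglia.

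Library totals in the 6 libraries ran from 17598269 to 18411165 counts, and levels are given as CPM, read counts scaled to a common library size. One library went against its label. App, the amyloid precursor gene, was at 2667, 2346 and 2565 CPM in 5xFAD and at 2587, 2201 and 1310 CPM in 5xFAD;Ulk1OV. Prnp, the prion protein gene, was at 2510, 2142 and 2376 CPM in 5xFAD and at 2202, 2067 and 954 CPM in 5xFAD;Ulk1OV. In both genes the library labelled 5xFAD;Ulk1OV replicate 3 lay at the level of the libraries without a 5xFAD label, where App was at 1241 to 1493 CPM and Prnp at 900 to 1119 CPM. Cst7, a protease inhibitor gene of plaque-associated microglia, was at 7.41, 4.72 and 4.36 CPM in 5xFAD and at 6.09, 6.29 and 0.779 CPM in 5xFAD;Ulk1OV. Thy1, a neuronal surface gene, was at 507 to 603 CPM in 5xFAD and at 538 to 606 CPM in 5xFAD;Ulk1OV, with no library apart. Besides App, it was thus Prnp and not Thy1 that stood higher in the other libraries with a 5xFAD label, and the labels do not state the promoter of the construct. Values are given with all libraries. List medians and fold changes of single genes are given again with this library left out, unless stated otherwise, written below as "with 11 libraries".

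**Figure D1:**
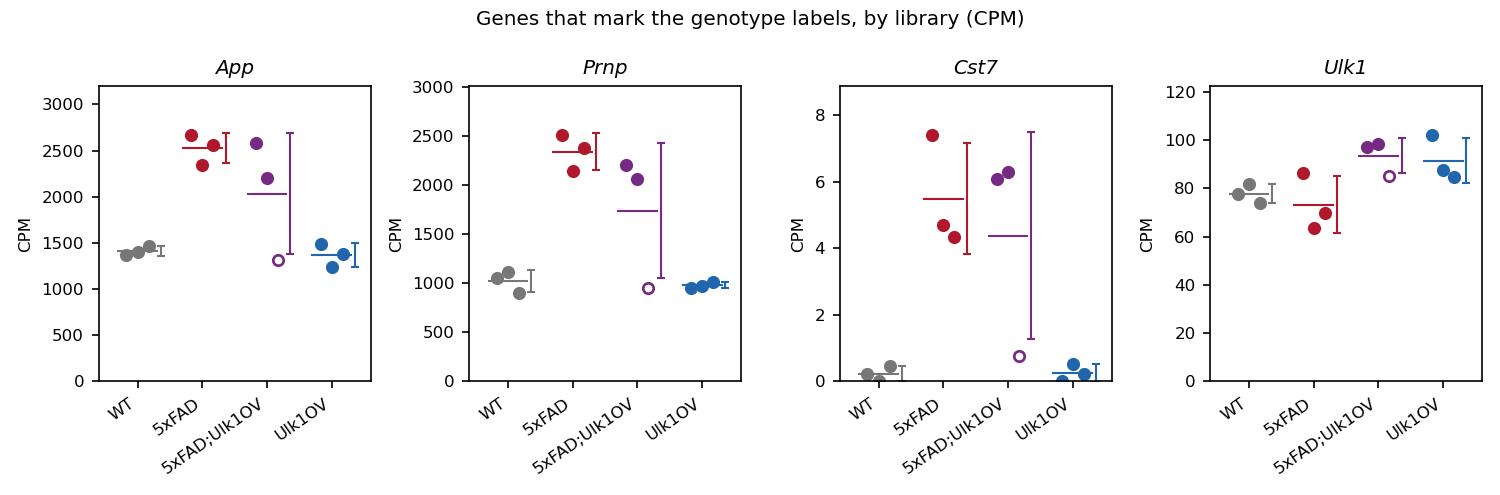
Levels of App, Prnp, Cst7 and Ulk1 in CPM (linear y axes from 0) in each library of the 4 groups on the x axis; lines are group means, bars SD (n = 3), and the open circle is the library labelled 5xFAD;Ulk1OV replicate 3. That library lies with the WT and Ulk1OV libraries in App (1310 CPM) and Prnp (954 CPM). Its Ulk1 level (85.1 CPM) lies within the range of Ulk1OV (84.6 to 102 CPM) and also within that of 5xFAD (63.5 to 86.3 CPM).

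Ulk1 itself (GRCm38 chromosome 5, 110784488 to 110810097, minus strand) was at 86.3, 63.5 and 70.0 CPM in 5xFAD and at 97.1, 98.5 and 85.1 CPM in 5xFAD;Ulk1OV. The groups overlapped, because 5xFAD replicate 1 exceeded the library labelled 5xFAD;Ulk1OV replicate 3. The log2 fold change was 0.35 ± 0.11 (SE) and did not pass the edgeR quasi-likelihood test (adjusted p = 0.144). Without that library both remaining 5xFAD;Ulk1OV libraries were above every 5xFAD library, with a log2 fold change of 0.43 (edgeR adjusted p = 0.123). In DESeq2, another test on the same counts, Ulk1 passed only without that library (DESeq2 adjusted p = 0.0439, and 0.058 with all libraries). That DESeq2 fit called 3.88% of all genes. After the correction for GC content and transcript length described below, the log2 fold change of Ulk1 with all libraries was 0.26 (edgeR adjusted p = 0.203). In Ulk1OV against WT it was 0.23 ± 0.11 without this correction (edgeR adjusted p = 0.229), so Ulk1 was not called there either. Construct reads enter these counts only if they align to mouse Ulk1.

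Across the transcriptome, 8 of 17227 genes tested rose in 5xFAD;Ulk1OV at a Benjamini-Hochberg adjusted p under 0.05, which is 0.0464% of the genes, and 0 fell. The adjusted p of the 8 lay between 0.0465 and 0.0494, close to the threshold. At an unadjusted p under 0.05, 1440 genes were higher (8.36%) and 1563 lower (9.07%). DESeq2, run on the same counts, called 369 genes higher (2.14%) and 365 lower (2.12%; 4.26% together). Without the library labelled 5xFAD;Ulk1OV replicate 3, edgeR called 6 genes higher (0.0348%) and 2 lower (0.0116%), and DESeq2 called 668 (3.88%). 4 genes were called in both fits (Ndufa2, Ndufa1, Tceal5 and Myl6). Other libraries moved this count as well: without 5xFAD replicate 1, edgeR called 276 genes (176 higher, 100 lower), and it called 0 without 5xFAD replicate 2, without 5xFAD replicate 3, without 5xFAD;Ulk1OV replicate 1 or without 5xFAD;Ulk1OV replicate 2, with 2120 to 2416 genes at an unadjusted p under 0.05 in those 4 fits.

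The 8 genes that rose encode 2 subunits of respiratory complex I (Ndufa1, Ndufa2), 2 X-linked proteins of the TCEAL family (Tceal3, Tceal5), a prefoldin subunit (Pfdn6), an adaptor of the ufmylation pathway (Ddrgk1), a putative isochorismatase (Isoc2a) and a myosin light chain (Myl6). Their increases were 1.54-fold to 1.92-fold. In each of the 8, every 5xFAD;Ulk1OV library was above every 5xFAD library. Among all genes tested, 10.7% had groups that did not overlap in this direction.

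Both complex I genes encode small accessory subunits of NADH dehydrogenase, the entry point of electrons into the respiratory chain. Ndufa2 was at 37.2, 33.6 and 37.6 CPM in 5xFAD and at 74.5, 73.9 and 59.5 CPM in 5xFAD;Ulk1OV, a log2 fold change of 0.94 ± 0.14 (SE, edgeR adjusted p = 0.0465). Ndufa1 (chromosome X, 37187588 to 37191163) was at 32.8, 27.6 and 30.2 CPM and at 62.3, 53.6 and 49.9 CPM in the same order, a log2 fold change of 0.87 ± 0.13 (edgeR adjusted p = 0.0465). The library labelled 5xFAD;Ulk1OV replicate 3 was the lowest of its group in both genes and still above all 5xFAD libraries. Without it the log2 fold changes were 1.05 for Ndufa2 and 0.95 for Ndufa1 (edgeR adjusted p = 0.0478 each).

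TCEAL proteins resemble transcription elongation factor A, and their genes lie in a cluster on chromosome X together with the BEX genes. Tceal5 (136200948 to 136203876, minus strand) was at 39.5, 25.9 and 35.7 CPM in 5xFAD and at 67.7, 69.7 and 51.8 CPM in 5xFAD;Ulk1OV, a log2 fold change of 0.90 ± 0.14 (edgeR adjusted p = 0.0494). Tceal3 (136590842 to 136668378, plus strand) was at 73.0, 48.7 and 55.8 CPM and at 106, 109 and 107 CPM in the same order, a log2 fold change of 0.86 ± 0.13 (edgeR adjusted p = 0.0465). The 3 Tceal3 values in 5xFAD;Ulk1OV were nearly equal, the library without 5xFAD transgene reads included. Without that library Tceal5 kept its call (log2 1.04, edgeR adjusted p = 0.0478) and Tceal3 did not pass (log2 0.87, edgeR adjusted p = 0.0676). TCEAL genes are close paralogs, so reads could be split between copies and their values are uncertain.

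The promoters of these TCEAL genes share a sequence element, and they are shown because the 2 genes rose together and lie on the same chromosome. RefSeq windows on GRCm38.p6, from 250 bases before to 50 bases after an annotated start, were searched on both strands for 4 motifs. The palindrome CACGTG, the core E-box bound by basic helix-loop-helix factors, was present in 2 of the 7 called genes with a window (Tceal3 and Tceal5) and in 8.09% of 27025 mouse genes with windows. In these 2 genes the match overlapped no match of the other motifs. CCGGAAG, an ETS family motif, was found in 1 of the 7 (Pfdn6) and in 9.93% of all genes. The NRF1 motif was in 0 of the 7 and 5.19% of all genes, and GCCATNTTG, the YY1 motif, in 0 of the 7 and 2.9% of all genes. The windows with the E-box in capitals, each 5′ to 3′ on the gene's strand, are at chrX:136666125-136666424 for Tceal3 (plus strand) and chrX:136203835-136204134 for Tceal5 (minus strand). Each gene had 3 windows, counted with windows on a further chromosome left out, and the first that holds the motif is given. The 8.09% is per gene, over 32851 windows of 27025 genes. Genes with 3 windows thus had more places for a match than most genes.
Tceal3: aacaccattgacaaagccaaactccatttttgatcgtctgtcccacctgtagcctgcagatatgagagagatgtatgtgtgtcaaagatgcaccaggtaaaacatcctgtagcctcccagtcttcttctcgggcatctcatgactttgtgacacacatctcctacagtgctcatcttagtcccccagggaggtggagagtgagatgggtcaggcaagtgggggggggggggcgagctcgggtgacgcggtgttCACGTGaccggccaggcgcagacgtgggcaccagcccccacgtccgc
Tceal5: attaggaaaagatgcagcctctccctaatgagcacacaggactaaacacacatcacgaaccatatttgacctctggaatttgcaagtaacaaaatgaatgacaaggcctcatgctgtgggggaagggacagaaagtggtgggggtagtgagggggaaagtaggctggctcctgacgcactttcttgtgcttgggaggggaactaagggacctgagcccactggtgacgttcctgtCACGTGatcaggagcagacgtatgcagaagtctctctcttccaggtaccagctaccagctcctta

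PFDN6 is a subunit of prefoldin, which hands unfolded actin and tubulin to the chaperonin TRiC. Pfdn6 (chromosome 17, 33938821 to 33940343) was at 28.0, 19.0 and 25.8 CPM in 5xFAD and at 44.0, 43.7 and 41.5 CPM in 5xFAD;Ulk1OV, a log2 fold change of 0.83 ± 0.12 (edgeR adjusted p = 0.0465). DDRGK1 anchors the UFM1 ligase at the endoplasmic reticulum, and that pathway takes part in the autophagy of this organelle. Ddrgk1 (chromosome 2, 130653960 to 130664659) was at 43.4, 35.7 and 39.8 CPM and at 63.8, 61.6 and 65.0 CPM in the same order, a log2 fold change of 0.68 ± 0.09 (edgeR adjusted p = 0.0465). In both genes the 3 libraries of 5xFAD;Ulk1OV lay closer together than those of 5xFAD. Without the library labelled 5xFAD;Ulk1OV replicate 3 the log2 fold changes were 0.86 and 0.67, and neither passed (edgeR adjusted p = 0.0535 for Pfdn6 and 0.0534 for Ddrgk1).

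Myl6, an essential light chain of non-muscle myosin (chromosome 10, 128490860 to 128494145), was the most abundant of the 8 in CPM. It was at 181, 150 and 164 CPM in 5xFAD and at 268, 259 and 235 CPM in 5xFAD;Ulk1OV, a log2 fold change of 0.62 ± 0.10 (edgeR adjusted p = 0.0465). Isoc2a (chromosome 7, 4877153 to 4896973) was at 22.4, 18.6 and 19.5 CPM and at 34.1, 31.6 and 30.5 CPM in the same order, a log2 fold change of 0.67 ± 0.11 (edgeR adjusted p = 0.0494). When the library labelled 5xFAD;Ulk1OV replicate 3 was left out, Myl6 passed (log2 0.69, edgeR adjusted p = 0.0478) and Isoc2a did not (log2 0.71, edgeR adjusted p = 0.064).

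**Figure D2:**
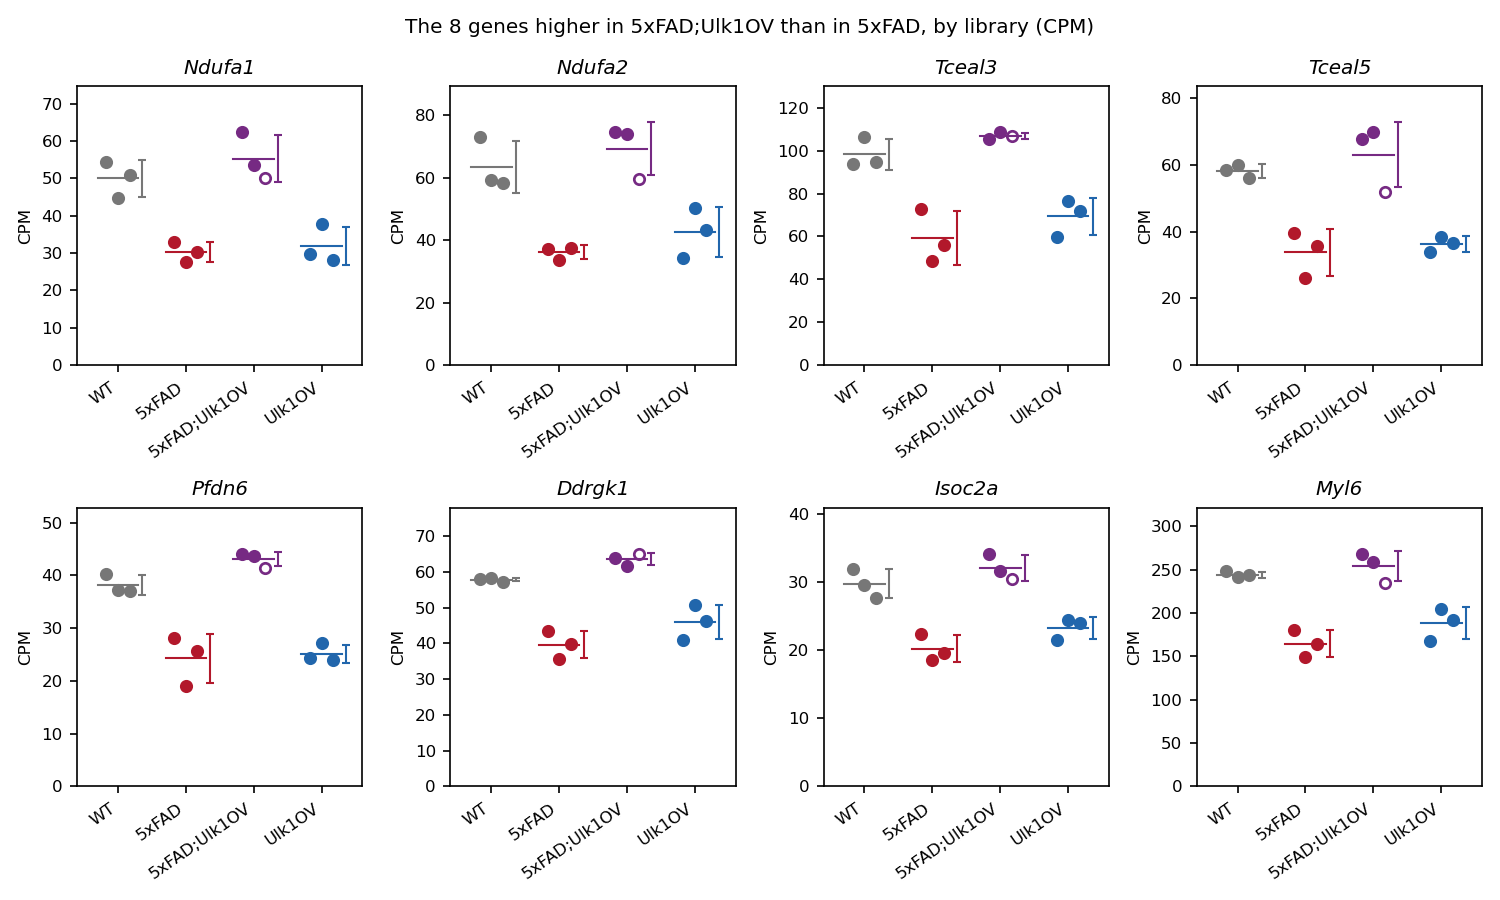
Levels in CPM (linear y axes from 0) of the 8 genes that rose in 5xFAD;Ulk1OV against 5xFAD, by library in the 4 groups; lines are means, bars SD (n = 3), and the open circle is the library labelled 5xFAD;Ulk1OV replicate 3. In all 8 panels the WT points lie above all 5xFAD and all Ulk1OV points, and the 5xFAD;Ulk1OV points lie in or near the WT range.

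The same genes were then read on the other background. In all 8 the WT mean was nearer to the 5xFAD;Ulk1OV mean than to the 5xFAD mean. Ndufa1, for example, was at 54.3, 44.6 and 51.0 CPM in WT and at 29.8, 37.8 and 28.1 CPM in Ulk1OV. Each WT library was above each Ulk1OV library in all 8 genes. The log2 fold change of Ulk1OV against WT ran from -0.68 (Tceal5) to -0.33 (Ddrgk1), and 6 of the 8 were called lower, against 3.04% of all genes in that comparison (edgeR adjusted p under 0.05). The difference between the 2 backgrounds was tested as an interaction, and all 8 passed it, with log2 differences of 0.999 (Myl6) to 1.59 (Tceal5) and edgeR adjusted p from 0.00275 to 0.00411. That contrast shares its 5xFAD libraries with the comparison in which the 8 were called, and it called 12.8% of all genes. It was not fitted with the GC and length correction described below.

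**Figure D3:**
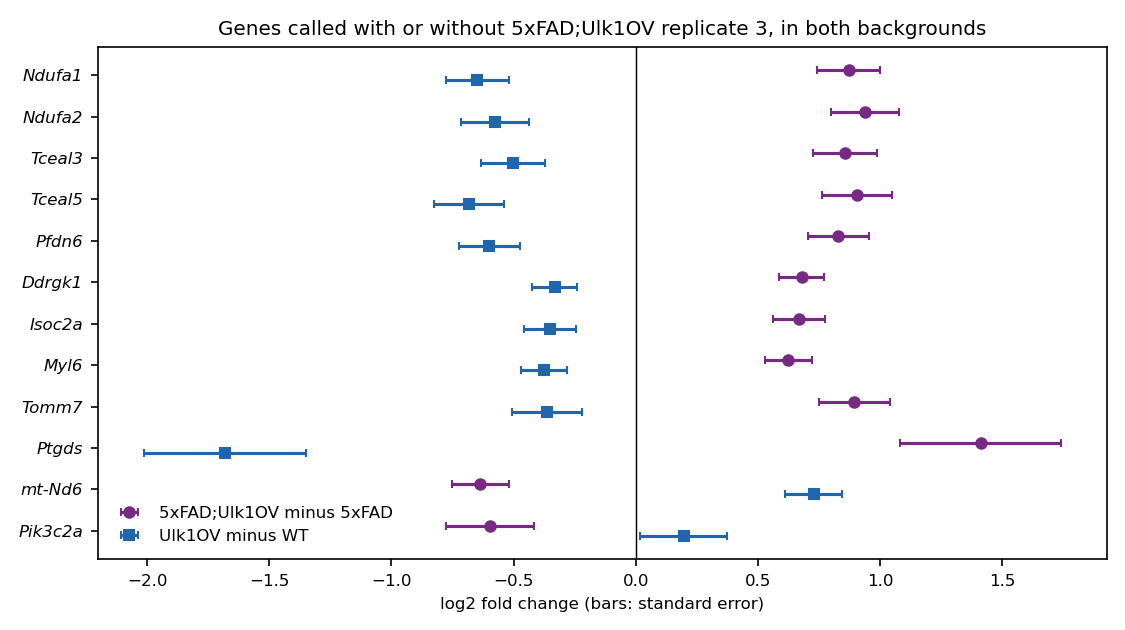
Log2 fold changes (points, with SE bars) of the 12 genes called with all libraries or without the library labelled 5xFAD;Ulk1OV replicate 3, for 5xFAD;Ulk1OV against 5xFAD (circles) and for Ulk1OV against WT (squares), both from the fit to all 12 libraries. The circles and squares of each gene lie on opposite sides of 0, with Ptgds the farthest apart (1.41 and -1.68).

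4 further genes were called only in the fit without the library labelled 5xFAD;Ulk1OV replicate 3. Ptgds, the prostaglandin D2 synthase of the meninges, choroid plexus and oligodendrocytes (chromosome 2, 25466709 to 25470046), was at 704, 1031 and 1172 CPM in 5xFAD and at 3259, 3197 and 1276 CPM in 5xFAD;Ulk1OV. Its log2 fold change was 1.75 without that library (edgeR adjusted p = 0.0478) and 1.41 ± 0.33 with it (edgeR adjusted p = 0.0816). Tomm7, a small subunit of the mitochondrial import channel that also stabilises PINK1 on damaged mitochondria, was at 24.8, 23.6 and 24.4 CPM in 5xFAD and at 49.0, 47.4 and 38.7 CPM in 5xFAD;Ulk1OV. Its log2 fold change was 1.0006 without that library (edgeR adjusted p = 0.0478) and 0.89 ± 0.15 with it (edgeR adjusted p = 0.0511). In neither gene did the groups overlap.

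The other 2 fell. Pik3c2a, a class II PI 3-kinase of endocytic membranes, was at 29.7, 34.6 and 31.5 CPM in 5xFAD and at 17.7, 16.7 and 28.9 CPM in 5xFAD;Ulk1OV. Its log2 fold change was -0.88 without the library labelled 5xFAD;Ulk1OV replicate 3 (edgeR adjusted p = 0.0478) and -0.60 ± 0.18 with it (edgeR adjusted p = 0.128), since that library lay just under the 5xFAD range. mt-Nd6, the complex I subunit encoded on the light strand of mitochondrial DNA, was at 1144, 1392 and 1224 CPM in 5xFAD and at 767, 715 and 938 CPM in 5xFAD;Ulk1OV. Its log2 fold change was -0.75 without that library (edgeR adjusted p = 0.0478) and -0.64 ± 0.12 with it (edgeR adjusted p = 0.0547).

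The genes with the smallest p below these did not pass the test with all libraries, and their values follow. On the higher side Mrpl52, a mitochondrial ribosomal protein gene, was at 22.1, 24.2 and 19.0 CPM in 5xFAD and at 34.5, 36.02 and 35.1 CPM in 5xFAD;Ulk1OV (log2 0.70 ± 0.11, edgeR adjusted p = 0.0511, and log2 0.71 with 11 libraries). On the lower side, Ncam2, a neural cell adhesion molecule, was at 80.2, 91.2 and 88.7 CPM and at 67.4, 55.8 and 59.4 CPM (log2 -0.51 ± 0.09, edgeR adjusted p = 0.0526, and log2 -0.48 with 11 libraries). Grik2, a kainate receptor subunit, had a log2 fold change of -0.49 ± 0.09 and Atrx, a chromatin remodeller, one of -0.44 ± 0.08 (edgeR adjusted p = 0.0547 each), and with 11 libraries -0.52 and -0.41. In Gpr22, Ints2, Gucy1a1, Rabgap1l and Shroom2 the log2 fold change ran from -0.63 (Ints2) to -0.46 (Shroom2), and with 11 libraries from -0.60 to -0.43. Non-overlap of the groups was a condition for naming these genes, and 11.5% of all genes met it on the lower side. With 11 libraries none of the genes first named from this paragraph on passed the edgeR test either (lowest adjusted p = 0.0765, with 3049 genes, 17.7%, at an unadjusted p under 0.05).

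Nuclear genes of the respiratory chain stood higher as a list. Of 38 nuclear complex I subunits tested, 2 rose and 0 fell, 19 (50.0%) were higher at an unadjusted p under 0.05 and 0 were lower, and DESeq2 called 15 higher. Over all genes tested, 8.36% were higher and 9.07% lower at an unadjusted p under 0.05, and edgeR called 0.0464%. DESeq2 called 2.14% higher and 2.12% lower. These shares are the background for this and every later list. With 11 libraries, 1546 of the 17227 genes were higher and 1503 lower at an unadjusted p under 0.05. The median log2 fold change of the complex I list was 0.27, against -0.001 over all genes tested, and 0.25 when the library labelled 5xFAD;Ulk1OV replicate 3 was left out. Ndufa3, another small accessory subunit, was at 54.7, 38.6 and 42.4 CPM in 5xFAD and at 84.6, 84.4 and 70.9 CPM in 5xFAD;Ulk1OV (log2 0.82 ± 0.15, edgeR adjusted p = 0.0547, and log2 0.91 with 11 libraries). Ndufb8, a membrane-arm subunit, had a log2 fold change of 0.66 ± 0.13 (edgeR adjusted p = 0.0597), and 0.71 with 11 libraries. With GC content and transcript length corrected for, the median of the list was 0.16.

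Among 23 nuclear subunits of complexes II, III and IV edgeR called 0 and DESeq2 5 higher, 11 (47.8%) were higher and 0 lower at an unadjusted p under 0.05, and the median log2 fold change was 0.20, or 0.24 with 11 libraries. Uqcr11, a small complex III subunit, was at 68.6, 52.8 and 61.4 CPM in 5xFAD and at 116, 110 and 111 CPM in 5xFAD;Ulk1OV (log2 0.88 ± 0.15, edgeR adjusted p = 0.0526, and log2 0.90 with 11 libraries). Cox5b, a complex IV subunit, was at 123, 108 and 131 CPM and at 196, 182 and 189 CPM (log2 0.64 ± 0.12, edgeR adjusted p = 0.0547, and log2 0.65 with 11 libraries). Of 16 ATP synthase genes edgeR called 0 and DESeq2 5 higher, and 6 (37.5%) were higher at an unadjusted p under 0.05, with a median log2 fold change of 0.12, or 0.15 with 11 libraries and 0.24 after the GC and length correction. Atp5k, subunit e of the enzyme, was at 38.3, 14.6 and 14.1 CPM in 5xFAD and at 68.0, 65.5 and 69.7 CPM in 5xFAD;Ulk1OV (log2 1.60 ± 0.31, edgeR adjusted p = 0.0597, and log2 1.59 with 11 libraries). On the other background Atp5k was at 63.0, 64.8 and 68.9 CPM in WT and at 10.4, 15.7 and 7.9 CPM in Ulk1OV, so 5xFAD and Ulk1OV held the low values and WT and 5xFAD;Ulk1OV the high ones.

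The 13 protein genes of the mitochondrial genome stood lower. With all libraries edgeR called 0 and DESeq2 6 lower, 7 (53.8%) were lower at an unadjusted p under 0.05, and the median log2 fold change was -0.43. When the library labelled 5xFAD;Ulk1OV replicate 3 was left out, 1 of the 13 fell (mt-Nd6, above) and the median was -0.62. mt-Nd5, a complex I subunit, was at 4155, 5185 and 4043 CPM in 5xFAD and at 2776, 2592 and 3753 CPM in 5xFAD;Ulk1OV (log2 -0.55 ± 0.14, edgeR adjusted p = 0.0982, and log2 -0.72 with 11 libraries). The summed level of the list was 42930 to 55620 CPM in 5xFAD and 29550 to 43000 CPM in 5xFAD;Ulk1OV, and the highest value of the latter group was that of the library without 5xFAD transgene reads. Relative to the mean of 5xFAD the list's median log2 ratio was -0.59, -0.65 and -0.09 in 5xFAD;Ulk1OV replicates 1, 2 and 3. After the GC and length correction the median was -0.28.

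Of 11 TCEAL and BEX genes, 2 rose (DESeq2 called 6) and 7 (63.6%) were higher at an unadjusted p under 0.05, with 0 lower. The median log2 fold change was 0.50, and 0.50 when the library labelled 5xFAD;Ulk1OV replicate 3 was left out. Bex2, a brain-expressed X-linked gene, was at 138, 141 and 142 CPM in 5xFAD and at 179, 215 and 202 CPM in 5xFAD;Ulk1OV (log2 0.50 ± 0.09, edgeR adjusted p = 0.0547, and log2 0.50 with 11 libraries). The summed level of the family was 524 to 571 CPM in 5xFAD and 748 to 816 CPM in 5xFAD;Ulk1OV, with no overlap, and 681 to 743 CPM in WT. After the GC and length correction the median was 0.31. This list was assembled with Tceal3 and Tceal5 already known, so its count is not independent of them.

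Cytosolic ribosomal protein genes, which build the translation machinery, leaned the same way. Of 70 tested edgeR called 0 and DESeq2 12 higher, 24 (34.3%) were higher and 0 lower at an unadjusted p under 0.05, and the median log2 fold change was 0.21, or 0.22 with 11 libraries. Rps29 was at 176, 131 and 137 CPM in 5xFAD and at 276, 280 and 285 CPM in 5xFAD;Ulk1OV (log2 0.92 ± 0.18, edgeR adjusted p = 0.0597, and log2 0.92 with 11 libraries). After the GC and length correction the median of the list dropped to 0.06. Ribosomal protein genes have many processed pseudogenes, so their counts are uncertain. Among 14 prefoldin and TRiC genes 1 rose (Pfdn6, DESeq2 called 2) and the median was 0.02, or 0.01 with 11 libraries, and among 8 ufmylation genes 1 rose (Ddrgk1) and the median was 0.04, or 0.05 with 11 libraries.

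**Figure D4:**
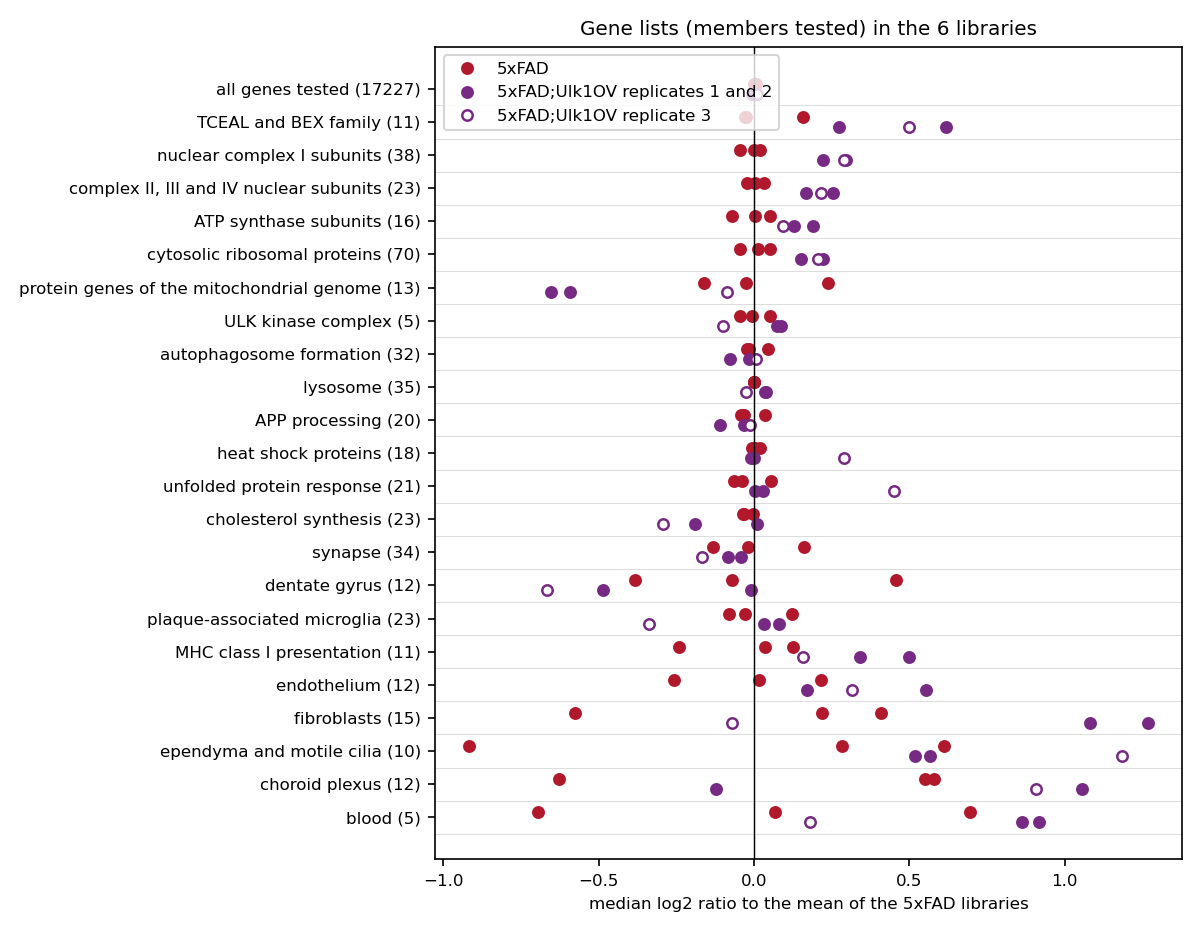
Median log2 ratio of each gene list (number of members tested in brackets) in single libraries, relative to the mean of the 3 5xFAD libraries; open circles are the library labelled 5xFAD;Ulk1OV replicate 3. The 5xFAD;Ulk1OV points of the TCEAL and BEX family and of complex I lie to the right of all 5xFAD points, while in mitochondrial genome genes (-0.59, -0.65 and -0.09) and fibroblast markers (1.08, 1.27 and -0.07) the open circle lies apart from the filled ones.

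Lengths and base composition moved with the comparison. The median log2 fold change was taken in 10 bins of equal size. It ran from 0.18 in the bin with the shortest transcripts to -0.14 in the bin with the longest, and from -0.22 in the bin with the lowest GC content to 0.21 in the bin with the highest. In the 2 other 5xFAD;Ulk1OV libraries the ends were 0.20 and -0.16 for length, and -0.24 and 0.26 for GC content. By the longest principal transcript of each gene, all 8 that rose were shorter than the median of 3165 bases, and 6 of the 8 had a GC content above the median of 49.6%. When each library's trend over both properties was removed, 0 genes were called (lowest edgeR adjusted p = 0.0602, with 1916 genes at an unadjusted p under 0.05). The 8 genes then kept 66.7% to 108% of their log2 fold changes. Genes named in other paragraphs varied more in this. Of the autophagy genes, Rb1cc1 kept 30.5% and Map1lc3a 32.7%, while Atg4d kept 93.8% and Gabarapl2 105.5%. Of the genes named on the lower side, Grik2 kept 37.6% and Ncam2 47.1%, while Ints2 kept 71.5% and Gucy1a1 76.5%. In Ulk1OV against WT the GC trend ran the other way, from 0.18 in the lowest bin to -0.28 in the highest. The part of base composition and length in the results was not tested beyond this correction.

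**Figure D5:**
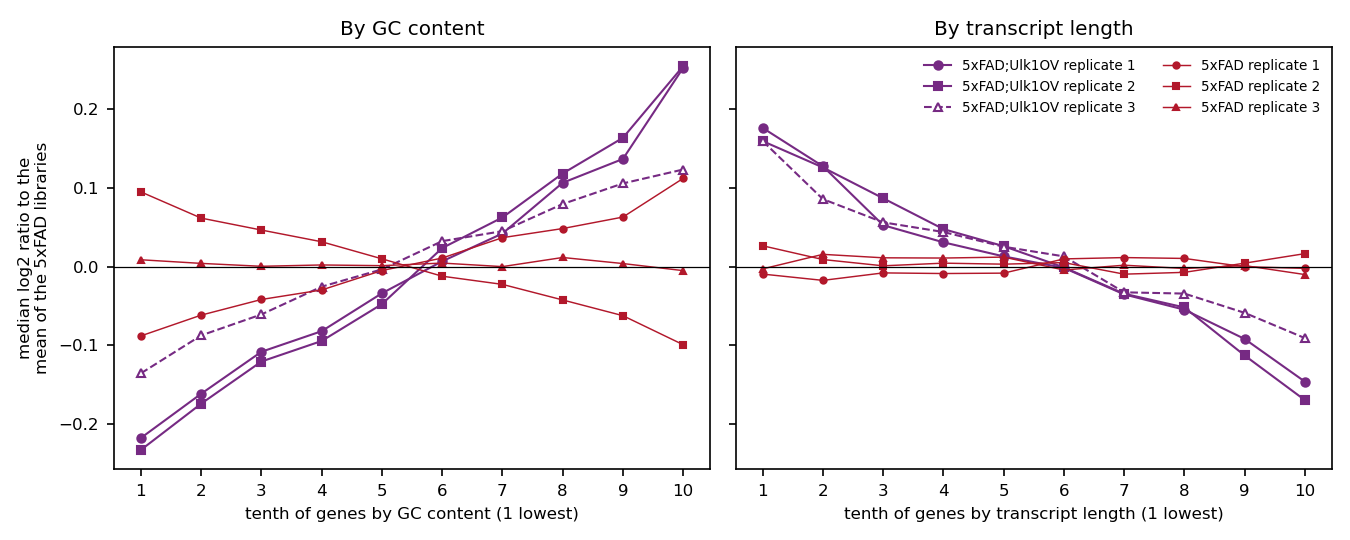
Median log2 ratio to the mean of the 5xFAD libraries (y axis) in 10 bins of the genes ordered by GC content (left) and by transcript length (right), 1 line per library. All 3 5xFAD;Ulk1OV libraries rise with GC content and fall with length, the library labelled replicate 3 less steeply (dashed), while the 5xFAD libraries are flat in length and differ among themselves in GC content.

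Genes of autophagy itself were measured next. In the ULK kinase complex edgeR called 0 of 5 genes and DESeq2 1 lower (Rb1cc1), with 1 higher and 2 lower at an unadjusted p under 0.05. Rb1cc1, the scaffold FIP200, was at 122, 134 and 127 CPM in 5xFAD and at 94.7, 91.1 and 106 CPM in 5xFAD;Ulk1OV (log2 -0.39 ± 0.10, edgeR adjusted p = 0.0968, and log2 -0.45 with 11 libraries). Ulk2, the paralog of Ulk1, had a log2 fold change of -0.22 ± 0.08 (edgeR adjusted p = 0.186), and Atg101 and Atg13 had 0.21 and 0.02. With 11 libraries Ulk2 had -0.17, Atg101 0.27 and Atg13 0.08. Rb1cc1 was also the member in which the 2 backgrounds differed, with a log2 fold change of 0.42 in Ulk1OV against WT and an interaction of -0.81 (edgeR adjusted p = 0.00634).

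Of 32 genes of autophagosome formation edgeR called 0 and DESeq2 3 higher (Map1lc3a, Gabarapl2 and Atg4d), 4 were higher and 3 lower at an unadjusted p under 0.05 (21.9% together, against 17.4% of all genes), and the median log2 fold change was -0.02, or -0.04 with 11 libraries. Map1lc3a, an LC3 protein that is conjugated to the growing membrane, was at 151, 104 and 119 CPM in 5xFAD and at 181, 173 and 172 CPM in 5xFAD;Ulk1OV (log2 0.49 ± 0.15, edgeR adjusted p = 0.129, and log2 0.51 with 11 libraries). Gabarapl2, of the same protein family, had a log2 fold change of 0.28 ± 0.09 and Atg4d, a protease that processes LC3, one of 0.42 ± 0.12 (edgeR adjusted p = 0.147 and 0.114), and with 11 libraries 0.27 and 0.35. In these 3 genes the groups did not overlap, as in 4 of the 32 on the higher side (12.5%, against 10.7% of all genes). Among 19 autophagy and mitophagy receptors edgeR called 0 and DESeq2 1 lower (Bnip3). At an unadjusted p under 0.05, 2 were higher and 2 lower (21.1% together), and the median was -0.12, or -0.06 with 11 libraries. Sqstm1, the receptor p62, was at 481, 453 and 511 CPM in 5xFAD and at 553, 552 and 530 CPM in 5xFAD;Ulk1OV (log2 0.18 ± 0.08, edgeR adjusted p = 0.255, and log2 0.21 with 11 libraries). Bnip3, a mitophagy receptor of the outer mitochondrial membrane, had a log2 fold change of -0.36 ± 0.08 (edgeR adjusted p = 0.0755), and -0.32 with 11 libraries.

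Upstream of ULK1, edgeR called 0 of 25 mTORC1, AMPK and nutrient-sensing genes and DESeq2 2 higher (Stk11 and Lamtor1). At an unadjusted p under 0.05, 6 were higher and 4 lower (40.0% together, against 17.4% of all genes). The median was -0.04, or 0.01 with 11 libraries. Stk11, the kinase LKB1 that activates AMPK, was at 72.5, 49.1 and 60.4 CPM in 5xFAD and at 77.5, 79.5 and 80.6 CPM in 5xFAD;Ulk1OV (log2 0.38 ± 0.12, edgeR adjusted p = 0.137, and log2 0.38 with 11 libraries). Downstream, edgeR called 0 of 35 lysosomal genes and DESeq2 3 higher (Npc2, Hexa and Gaa), 5 were higher and 1 lower at an unadjusted p under 0.05 (17.1% together, against 17.4% of all genes), and the median was 0.02, or 0.06 with 11 libraries. Npc2, a cholesterol carrier of the lysosome, had a log2 fold change of 0.37 ± 0.09 (edgeR adjusted p = 0.0908), Hexa 0.27 ± 0.07 and Tpp1 -0.24 ± 0.09, and with 11 libraries they had 0.36, 0.28 and -0.29.

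The comparison also asked whether amyloid-related genes differed. Of 20 genes of APP processing edgeR called 0 and DESeq2 1 lower (Ide). At an unadjusted p under 0.05, 1 was higher and 4 lower (25.0% together, against 17.4% of all genes). The median log2 fold change was -0.07, or -0.06 with 11 libraries. App had a log2 fold change of -0.31 ± 0.18 with all libraries (edgeR adjusted p = 0.389) and -0.07 without the library that lacks transgene reads (edgeR adjusted p = 0.791). That library was set apart by its App and Prnp reads, so the shift between these App values follows from that choice. Ide, the insulin-degrading enzyme that also cleaves amyloid-β, was at 59.2, 64.5 and 59.7 CPM and at 44.7, 46.8 and 52.3 CPM (log2 -0.35 ± 0.08, edgeR adjusted p = 0.0823, and log2 -0.41 with 11 libraries). Counts at the mouse App gene include whatever transgene reads align there, so the endogenous level cannot be told apart.

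Among microglial genes of the plaque response values differed in direction. Of 23 plaque-associated genes edgeR called 0 and DESeq2 1 higher (Apoe). With all libraries, 2 were higher and 2 lower at an unadjusted p under 0.05 (17.4% together, the same as the 17.4% of all genes). With 11 libraries 6 were higher and 1 lower, beside 1546 higher and 1503 lower among all 17227 genes. The median log2 fold change was -0.12 with all libraries and 0.02 when the library labelled 5xFAD;Ulk1OV replicate 3 was left out. Relative to the mean of 5xFAD the list's median log2 ratio was 0.08, 0.03 and -0.34 in 5xFAD;Ulk1OV replicates 1, 2 and 3. Trem2, the lipid receptor of microglia, was at 23.7, 28.4 and 24.3 CPM in 5xFAD and at 32.6, 31.9 and 19.1 CPM in 5xFAD;Ulk1OV, so the first 2 libraries lay above and the third below the 5xFAD range. Its log2 fold change was 0.13 ± 0.19 with all libraries (edgeR adjusted p = 0.772) and 0.35 without that library (edgeR adjusted p = 0.256). Apoe, the lipid carrier made by astrocytes and activated microglia, was at 2096, 1907 and 1816 CPM and at 2890, 3250 and 2684 CPM (log2 0.60 ± 0.13, edgeR adjusted p = 0.0749, and log2 0.67 with 11 libraries). C1qa, a complement component, had a log2 fold change of 0.54 ± 0.12 (edgeR adjusted p = 0.0776), and P2ry12, a receptor of homeostatic microglia, one of -0.46 ± 0.12 (edgeR adjusted p = 0.0995). With 11 libraries they had 0.66 and -0.43. C1qa was the highest of 5 complement genes, of which 2 were below 0. Their median was 0.11, or 0.10 with 11 libraries and -0.13 after the GC and length correction. Of 12 homeostatic microglial genes 11 were below 0 (8.3% above 0, against 49.8% of all genes), with a median of -0.11, or -0.12 with 11 libraries. EdgeR called 0 and DESeq2 1 lower, and 0 were higher and 1 lower at an unadjusted p under 0.05. The median log2 ratio of this list was 0.002, 0.20 and -0.16 in 5xFAD. It was -0.13, -0.14 and -0.13 in 5xFAD;Ulk1OV, so the groups overlapped. In bulk tissue, fewer cells of a type and less RNA per cell cannot be told apart.

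Stress genes stood higher mainly in the library labelled 5xFAD;Ulk1OV replicate 3. Of 21 genes of the unfolded protein response edgeR called 0 and DESeq2 3 higher. At an unadjusted p under 0.05, 7 (33.3%) were higher and 0 lower, and without that library 3 were higher and 0 lower. The median log2 fold change was 0.25, which was 0.02 without that library. Relative to the mean of 5xFAD the median log2 ratio of the list was 0.00, 0.03 and 0.45 in 5xFAD;Ulk1OV replicates 1, 2 and 3. Pdia6, a disulfide isomerase of the endoplasmic reticulum, was at 94.1, 77.2 and 81.7 CPM in 5xFAD and at 99.97, 110 and 143 CPM in 5xFAD;Ulk1OV (log2 0.48 ± 0.13, edgeR adjusted p = 0.102, and log2 0.33 with 11 libraries). It was at 121, 145 and 146 CPM in Ulk1OV, the range in which that library lay. The median of 18 heat shock genes was 0.11 with all libraries and 0.01 without that library, with 0 called by edgeR or DESeq2 and 5 higher at an unadjusted p under 0.05. Hspb1, a small heat shock protein, was at 2.71, 3.65 and 4.41 CPM in 5xFAD and at 10.1, 8.42 and 10.6 CPM in 5xFAD;Ulk1OV (log2 1.43 ± 0.24, edgeR adjusted p = 0.0526, and log2 1.37 with 11 libraries), so it was high in all 3.

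By their medians over all libraries, synapse genes and dentate gyrus markers stood lower, and other neuronal lists stood near 0. Of 34 synapse genes edgeR called 0 and DESeq2 3 lower, and 0 were higher and 7 (20.6%) lower at an unadjusted p under 0.05. The median log2 fold change was -0.14, or -0.09 without the library labelled 5xFAD;Ulk1OV replicate 3. Relative to the mean of 5xFAD, the list's median log2 ratio was 0.16, -0.13 and -0.02 in 5xFAD and -0.04, -0.08 and -0.17 in 5xFAD;Ulk1OV. Its summed level was 18090 to 22380 CPM in 5xFAD and 16720 to 19210 CPM in 5xFAD;Ulk1OV. The groups overlapped in both measures. Snap25, a SNARE protein of synaptic vesicle fusion, was at 2557, 2014 and 2486 CPM in 5xFAD and at 2058, 1850 and 1750 CPM in 5xFAD;Ulk1OV (log2 -0.32 ± 0.10, edgeR adjusted p = 0.149, and log2 -0.26 with 11 libraries). Of 12 dentate gyrus markers edgeR called 0 and DESeq2 2 lower, and 4 (33.3%) were lower at an unadjusted p under 0.05, with a median of -0.41, or -0.32 with 11 libraries. Pter, one of them, was at 116, 121 and 131 CPM and at 91.9, 97.7 and 67.4 CPM (log2 -0.51 ± 0.12, edgeR adjusted p = 0.0804, and log2 -0.36 with 11 libraries). The summed level of these markers was 558 to 916 CPM in 5xFAD and 430 to 666 CPM in 5xFAD;Ulk1OV, so the groups overlapped. None of the 12 was at 0 in a library, and their part in the neuronal values was not tested. Of 28 activity-dependent genes edgeR and DESeq2 called 0, and 3 were higher at an unadjusted p under 0.05, with a median of 0.11, or 0.20 without that library. The median was 0.02 for 10 general neuronal markers, 0.01 for 11 interneuron markers, -0.05 for 7 CA1 markers and 0.03 for 7 CA3 markers, and with 11 libraries it was 0.14, -0.05, 0.06 and 0.15.

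Fibroblast markers, which label the meninges, stood higher in 2 of the 3 libraries. Of 15 such markers edgeR called 0 and DESeq2 1 higher. At an unadjusted p under 0.05, 7 (46.7%) were higher and 1 lower, and with 11 libraries 12 were higher and 0 lower. The median log2 fold change was 0.90, or 1.23 without the library labelled 5xFAD;Ulk1OV replicate 3. Slc6a13, a GABA transporter of the leptomeninges, was at 7.24, 12.2 and 15.7 CPM in 5xFAD and at 32.4, 37.9 and 12.4 CPM in 5xFAD;Ulk1OV (log2 1.23 ± 0.37, edgeR adjusted p = 0.128, and log2 1.59 with 11 libraries). Aldh1a2, a retinoic acid enzyme of the same layer, was at 8.59, 17.8 and 20.3 CPM and at 47.8, 43.4 and 16.8 CPM (log2 1.21 ± 0.37, edgeR adjusted p = 0.134, and log2 1.56 with 11 libraries). In Slc6a13 and Aldh1a2 the library labelled 5xFAD;Ulk1OV replicate 3 lay within the 5xFAD range, and in Ptgds just above it. The summed level of the fibroblast markers was 236 to 401 CPM in 5xFAD, 295 to 584 CPM in 5xFAD;Ulk1OV, 271 to 291 CPM in Ulk1OV and 445 to 587 CPM in WT, with none of the 15 at 0 in a library. Their part in the values of Ptgds and of the genes that rose was not tested.

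For endothelium, border macrophages and leukocytes, blood, choroid plexus and ependyma edgeR called 0 genes, and DESeq2 1 (in ependyma). At an unadjusted p under 0.05, 11 of these 51 markers were higher and 0 lower, against 8.36% higher among all genes. The median log2 fold change was 0.33 for 12 endothelial markers, 0.48 for 12 markers of border macrophages and leukocytes, 0.55 for 5 blood markers, 0.74 for 12 choroid plexus markers and 0.74 for 10 markers of ependyma, and with 11 libraries it was 0.41, 0.71, 0.76, 0.67 and 0.47. Cldn5, a tight junction protein of brain endothelium, was at 3.28, 3.54 and 4.52 CPM in 5xFAD and at 7.21, 13.2 and 7.96 CPM in 5xFAD;Ulk1OV (log2 1.32 ± 0.33, edgeR adjusted p = 0.0963, and log2 1.44 with 11 libraries). Foxj1, the master gene of motile cilia, was at 8.42, 26.5 and 20.5 CPM and at 31.8, 28.1 and 57.3 CPM (log2 1.08 ± 0.34, edgeR adjusted p = 0.135, and log2 0.71 with 11 libraries), with 5xFAD replicate 1 the lowest of the 6. The summed levels were 108 to 143 and 142 to 167 CPM for endothelium, and 34.3 to 108 and 104 to 178 CPM for ependyma, in 5xFAD and 5xFAD;Ulk1OV. In the same order they were 21.9 to 40.7 and 23.8 to 70.3 CPM for border macrophages and leukocytes. For blood they were 52.1 to 130.5 and 100.1 to 161.1 CPM, and for choroid plexus 32.95 to 176.2 and 69.63 to 365.2 CPM. In all of these lists the groups overlapped. The median was 0.05 for 12 astrocyte, -0.08 for 12 oligodendrocyte, -0.003 for 7 oligodendrocyte precursor and 0.03 for 9 mural cell markers. With 11 libraries these were -0.01, -0.24, -0.13 and 0.09.

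Antigen presentation and sterol synthesis close the lists. Of 11 genes of MHC class I presentation edgeR called 0 and DESeq2 1 higher (H2-T23). At an unadjusted p under 0.05, 4 were higher and 1 lower (45.5% together, against 17.4% of all genes). The median log2 fold change was 0.36, or 0.43 with 11 libraries. H2-T23, a non-classical class I gene, was at 7.29, 10.8 and 8.33 CPM in 5xFAD and at 14.1, 16.5 and 12.8 CPM in 5xFAD;Ulk1OV (log2 0.72 ± 0.17, edgeR adjusted p = 0.0882, and log2 0.81 with 11 libraries). B2m, the light chain of class I molecules, stood the other way with a log2 fold change of -0.34 ± 0.12 (edgeR adjusted p = 0.184), and -0.32 with 11 libraries. Of 23 cholesterol synthesis genes edgeR called 0 and DESeq2 1 in each direction, 1 was higher and 6 (26.1%) lower at an unadjusted p under 0.05, with a median of -0.18, or -0.07 without the library labelled 5xFAD;Ulk1OV replicate 3. Msmo1, a sterol methyl oxidase, was at 148, 169 and 148 CPM and at 129, 122 and 114 CPM (log2 -0.35 ± 0.11, edgeR adjusted p = 0.134, and log2 -0.30 with 11 libraries).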

How the data were processed

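The authors deposited read counts per gene, not normalized. The submitters' processing notes name FastQC, Trim Galore, HISAT2, SAMtools, featureCounts, DESeq2 and mm10, without versions; neither the annotation nor the strand setting is given in the sources used here, which leaves paralogs, pseudogenes and genes that overlap with uncertain counts. Of 54427 genes, 17227 passed edgeR's default filter. Libraries were scaled by TMM and fitted with edgeR 4.0.16 (quasi-likelihood, all 12 libraries, 1 mean per group; R 4.3.3), and again with 11 libraries. SE is log2 fold change over the square root of F, and p-values were adjusted by Benjamini-Hochberg over all genes (threshold 0.05). With 3 libraries against 3, the smallest two-sided exact permutation p is 0.1. Positions, lengths and GC content come from GENCODE M21 (99.3% of genes matched). The fit was tested on simulated data.

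The comparison and the gene lists were chosen with earlier results of these data known. Named were Ulk1, App, Prnp and Thy1, up to 12 called genes per direction, the smallest p-values to fill up to 10 per direction (mean of at least 5 CPM, no overlap; values only) and up to 4 members per list; Cst7, Trem2 and Atg13 were chosen after their values were seen. Some genes that this rule names are not reported here. Alternatives were DESeq2 1.42.0, its size factors, no filter, a replicate block, only the compared libraries, a loess correction (span 0.4) for GC content and length, and leaving out each library. Replicates differed beyond sampling noise (chi-square per degree of freedom 7.02 to 24.6). Counting precision follows from totals of 16149992 to 18547132 counts per library.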

Additional observations from a re-analysis of the deposited data

Results flagged for a closer look

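The log2 fold change between libraries with and without an Ulk1OV label differed between the 5xFAD and the WT background in 11 genes. This is by the interaction term of the fit to all 12 libraries, among the 12 genes called with or without the library labelled 5xFAD;Ulk1OV replicate 3. That library, which goes against its label, is in this fit. The log2 difference between the backgrounds was 0.999 for Myl6 and 1.36 for Tceal3 (edgeR adjusted p = 0.00311 each). It was 1.51 for Ndufa2, 1.01 for Ddrgk1, 1.59 for Tceal5, 1.52 for Ndufa1 and 1.43 for Pfdn6 (edgeR adjusted p = 0.00275 each), and 1.02 for Isoc2a (edgeR adjusted p = 0.00411). Ptgds had 3.09 (edgeR adjusted p = 0.00438), Tomm7 1.26 (edgeR adjusted p = 0.00543) and mt-Nd6 -1.36 (edgeR adjusted p = 0.00275). Pik3c2a did not pass with all libraries (-0.79, edgeR adjusted p = 0.055) and passed without the library labelled 5xFAD;Ulk1OV replicate 3, the fit in which it was called (-1.07, edgeR adjusted p = 0.00466). The interaction called 12.8% of all genes, and it shares the 5xFAD libraries with the comparison that chose these genes. The GC trend ran in opposite directions on the 2 backgrounds, and no interaction was fitted with the GC and length correction. The part of GC content in these differences was not tested.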

How the results depend on the processing

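With all libraries edgeR called 8 genes. DESeq2 called 734, edgeR with DESeq2's size factors 18, and edgeR without the filter 901. In the unfiltered fit the prior degrees of freedom were infinite, against 5.48, so each gene took the spread of the trend. The replicate block, the fit to the compared libraries alone and the GC and length correction gave 0 each (3082, 2776 and 1916 genes at an unadjusted p under 0.05, with the lowest edgeR adjusted p at 0.0636, 0.0799 and 0.0602). Leaving out 1 library gave 0 to 276. In the fit that omits the library labelled 5xFAD;Ulk1OV replicate 3, edgeR also called 8. There DESeq2 called 668, the unfiltered fit 1012, the replicate block 0 and the correction 0, and leaving out a further library gave 0 to 272. A filter redone on those 11 libraries, added after the data were seen, called 12. The cause of these differences was not tested, except where stated.

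Replicate numbers do not pair the libraries: deviations from the group means of same-numbered libraries correlated at 0.14, -0.15 and -0.06, so the replicate block is an alternative only. Of 65 single genes followed over 12 alternatives, 61 kept their sign with all libraries and 62 in the fit to 11 libraries. In the fit to all libraries the exceptions under the GC and length correction were Thy1 (-0.132), Atg101 (-0.0268) and Atg13 (-0.0227). With 1 library left out the values ranged from -0.0438 to 0.091 for Thy1, from -0.053 to 0.0848 for Atg13 and from -0.676 to 0.181 for Cst7. In the fit to 11 libraries the exceptions were App (0.0962), Thy1 (-0.102) and Atg101 (-0.0185) under that correction, and App ranged from -0.196 to 0.05 with a further library left out. List medians near 0 also changed sign in places. The median of the ULK kinase complex ranged from -0.05 to 0.08 and that of the lysosome list from -0.03 to 0.06. Those of autophagy receptors (-0.12 to 0.00), mTORC1 and AMPK genes (-0.05 to 0.07) and ufmylation (-0.04 to 0.09) did too. Depth limits genes of a few CPM, such as Cst7.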

Other observations

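Libraries 1 and 2 of 5xFAD;Ulk1OV correlated best with each other and with WT libraries (across genes, log2 CPM, r = 0.987 between 5xFAD;Ulk1OV replicates 1 and 2 and r = 0.987 between 5xFAD;Ulk1OV replicate 1 and WT replicate 1), and the library labelled 5xFAD;Ulk1OV replicate 3 with Ulk1OV replicate 2 (r = 0.984). That library had r = 0.978 and 0.980 with Ulk1OV replicates 1 and 3. Its r was 0.979 to 0.983 with the WT libraries and 0.977 to 0.982 with those of 5xFAD, so no group stood apart. Genes are not independent replicates, and the labels do not state how or in which batches the libraries were prepared.

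The fold changes of Bok and Egr4 and the interaction of Egr4 are given here with all libraries only. Bok, a BCL-2 family gene, was at 73.2, 59.5 and 47.0 CPM in 5xFAD and at 84.7, 88.5 and 84.6 CPM in 5xFAD;Ulk1OV. The groups did not overlap, as in 10.7% of all genes in this direction, and Bok did not pass the test (log2 0.52 ± 0.14, edgeR adjusted p = 0.109). Egr4, an activity-dependent transcription factor gene, was at 37.4, 26.8 and 23.4 CPM and at 36.2, 52.9 and 34.2 CPM in the same order (log2 0.49 ± 0.23, edgeR adjusted p = 0.292), at 40.7, 54.6 and 33.6 CPM in WT and at 20.3, 15.1 and 12.6 CPM in Ulk1OV, and its interaction was 1.92 (edgeR adjusted p = 0.00662).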
